A study of Mus musculus with 2 samples.

Results

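The enzymes that add or remove acetyl and methyl groups on histones, and methyl groups on DNA, were described in mouse bone marrow-derived macrophages. Genes were taken by symbol: Hdac, Sirt, Setd, Ezh and Kdm genes followed by a digit, all Kmt2 and Dnmt genes, and Tet1, Tet2 and Tet3, leaving out Kdm5c, Kdm5d, Kdm6a and pseudogenes with "-ps" in their symbol. The rule uses no measured value. It found 60 of the 55536 gene entries, of which 56 are protein-coding (of 22028). The remaining 4 are the antisense RNAs Dnmt3aos, Dnmt3bos and Kdm6bos and the pseudogene Kdm4dl.

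The study holds 1 group of 2 libraries of polyadenylated RNA from cultured primary macrophages grown from C57BL/6J bone marrow, a strain for which the labels give no engineered allele. The cells of both libraries received Lipid A, the Toll-like receptor 4 agonist part of bacterial lipopolysaccharide, at 100 ng/ml for 12 h, were washed free of it for 12 h, and then received 100 ng/ml for 30 min. A separate treatment field names the agent lipoprotein A at the same dose, and the labels do not settle which name is right. The libraries are numbered as biological replicates 1 and 2 with separate biosamples, yet they share 1 donor record, the sex and age fields were not filled, and there is no untreated or singly treated group. With 1 library on each side of the only contrast, no p-value is given. The spread between the libraries may also be partly technical.

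Histone deacetylases strip acetyl groups from lysines and, in corepressor complexes, lower transcription, and the sirtuins do so with NAD as a cosubstrate. Set-domain methyltransferases place, and Jumonji or amine-oxidase demethylases remove, methyl marks that distinguish active promoters (lysine 4 of histone H3, written H3K4), silenced chromatin (H3K9 and H3K27) and transcribed gene bodies (H3K36). Dnmt enzymes methylate cytosine and Tet enzymes oxidise the methyl group. In macrophages this machinery is known for holding inflammatory genes in check before a stimulus and for leaving marks that alter the response to a second one.

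Library totals were 41938419 counts in replicate 1 and 30780681 in replicate 2. Levels in TPM (read number per transcript length on a scale with the same sum in every library) are given below for replicate 1 and then replicate 2, and a gene at 1 TPM or more in both is called detected. All 10 macrophage markers were detected. Of the T cell markers 1 of 7 was detected, Cd4, with Cd3d, Cd3e, Cd3g and Cd8a at 0.09 TPM or below. Erythroid markers reached 0 of 5, B cell markers 1 of 6, neutrophil markers 2 of 9 and stromal markers 7 of 7. The 9 neutrophil genes summed to 75.2 and 9.88 TPM, led by S100a9 at 40.1 and 5.28 TPM, S100a8 at 22.3 and 3.66 TPM and Ngp at 10.2 and 0.40 TPM. Ltf was at 1.35 and 0.14 TPM, and the other 5 neutrophil genes, Ly6g at 0 among them, were below 1 TPM in both libraries. The 7 T cell genes summed to 58.9 and 38.5 TPM, the 6 B cell genes to 8.80 and 5.07 TPM and the 7 stromal genes to 565 and 645 TPM. All 14 immediate-early genes were higher in replicate 2, 11 of them at least 2-fold (median log2 ratio 1.30). The part of these differences in the values below was not tested.

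Most of the machinery was detected, mostly above the median level of all protein-coding genes. Of the 60 genes 51 were detected, 50 of them protein-coding; that is 89.3% of the 56 coding members, where 48.7% of all protein-coding genes were detected. In both libraries 27 members, all protein-coding, reached 10 TPM, as did 6671 of all 22028 protein-coding genes. Sirt2 alone of the members reached 100 TPM in both. The coding members had a median of 9.61 and 9.43 TPM, and all protein-coding genes one of 0.91 and 0.98 TPM. Over all 60 the median level was 9.01 TPM and 8.36 TPM, and together they made up 0.106% and 0.103% of all transcripts. In bulk RNA, fewer cells with a transcript and less transcript per cell cannot be told apart, and this holds for every level given here.

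**Figure D1:**
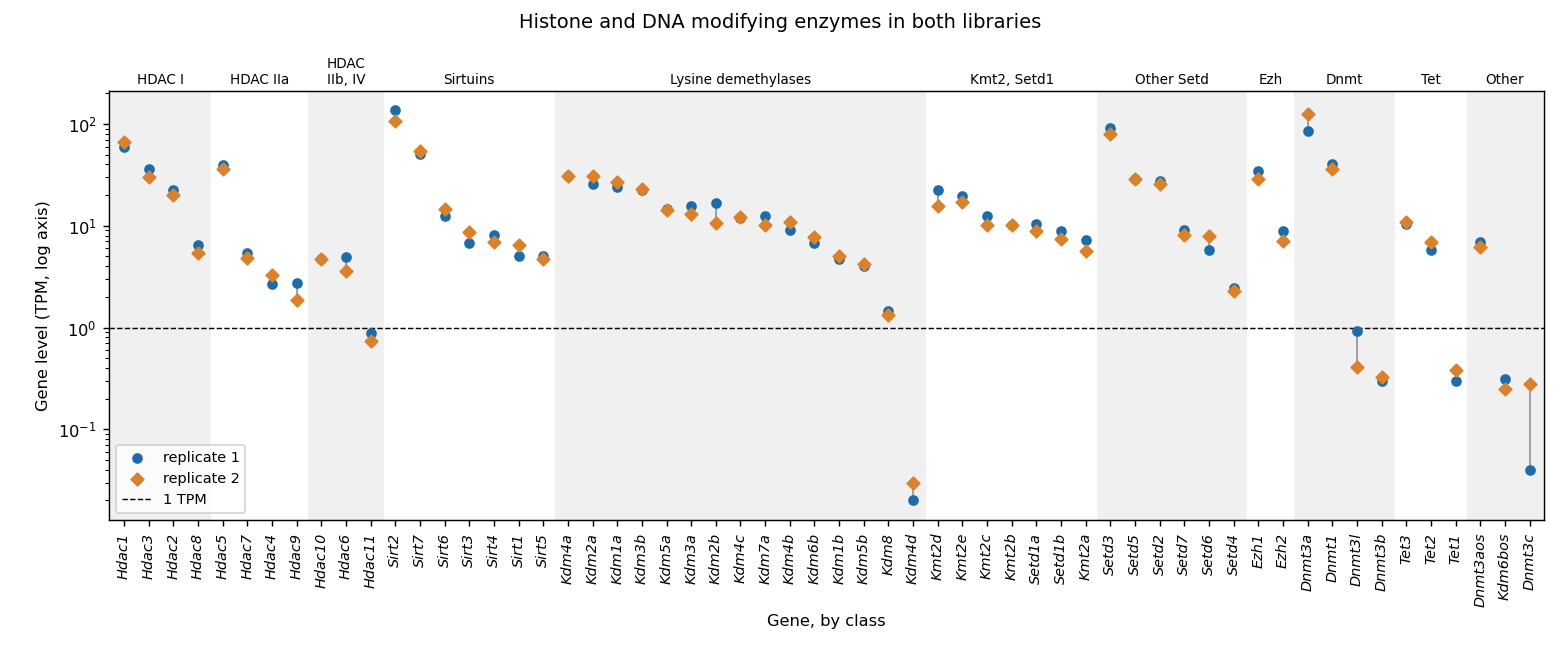
Level of each member with any signal (y axis, TPM on a log axis) in replicate 1 (circles) and replicate 2 (diamonds), grouped by class along the x axis; the dashed line marks 1 TPM, and Dnmt3bos and Kdm4dl, at 0 in both libraries, are not drawn. Sirt2, Dnmt3a and Setd3 stand at the top, and the points of most genes nearly coincide.

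Among class I deacetylases, the nuclear enzymes of the large corepressor complexes, all 4 were detected. Hdac1, a catalytic subunit of the Sin3, NuRD and CoREST complexes, was highest at 59.5 and 67.1 TPM. Its close paralogue Hdac2 lay at 22.5 and 20.3 TPM, so Hdac1 exceeded Hdac2 by 2.65-fold and 3.31-fold. Hdac3, the enzyme of the NCoR and SMRT corepressors, was between them at 35.9 and 30.4 TPM. Hdac8, which acts on the cohesin subunit Smc3, was lowest at 6.48 and 5.36 TPM. The order of the 4 was the same in both libraries, and neighbours did not overlap.

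Class IIa deacetylases, which shuttle between nucleus and cytoplasm under kinase control, were carried by 1 gene. Hdac5 lay at 39.2 and 36.3 TPM and gave 78.5% and 78.4% of the class total. Hdac7 was at 5.36 and 4.86 TPM, 7.32-fold and 7.47-fold below Hdac5. Hdac4, at 2.68 and 3.29 TPM, and Hdac9, at 2.73 and 1.86 TPM, changed places between the libraries. In class IIb, the cytoplasmic tubulin deacetylase Hdac6 was at 4.95 and 3.58 TPM and the polyamine deacetylase Hdac10 at 4.75 and 4.69 TPM, and the values of these 2 genes overlap. Hdac11, the class IV enzyme, stayed below the detection limit at 0.88 and 0.74 TPM.

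All 7 sirtuins were detected, and Sirt2 gave 60.7% and 52.8% of their summed level. Sirt2, mainly a cytoplasmic deacetylase, was at 135 and 107 TPM, the highest member in replicate 1 and by mean level, and below Dnmt3a in replicate 2. It stood above 95.4% and 94.5% of protein-coding genes. Sirt7, found in the nucleolus, followed at 50.2 and 54.1 TPM, and the chromatin-bound Sirt6 at 12.6 and 14.7 TPM. Sirt1, the nuclear deacetylase known to act on the NF-kB subunit p65, was at 5.02 and 6.43 TPM, 27.0-fold and 16.6-fold below Sirt2, or 42.5-fold and 42.4-fold over coding transcripts alone. The mitochondrial members were likewise low: Sirt3 at 6.82 and 8.58 TPM, Sirt4 at 8.04 and 6.97 TPM, and the desuccinylase Sirt5 at 5.04 and 4.72 TPM. Over whole genes Sirt3 and Sirt4 overlap, and so do Sirt1 and Sirt5, so their order is not resolved on that scale. Over coding transcripts alone Sirt3 was at 6.66 and 8.01 TPM and Sirt5 at 4.24 and 4.22 TPM. On the same scale Sirt1 was at 3.17 and 2.51 TPM and Sirt4 at 1.51 and 1.06 TPM, and these did not overlap.

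Of 15 lysine demethylases 14 were detected, and no single enzyme dominated. The 4 highest were Kdm4a, which removes H3K9 and H3K36 methylation, at 30.5 and 30.8 TPM, the CpG-island-binding H3K36 demethylase Kdm2a at 25.7 and 31.1 TPM, the CoREST amine oxidase Kdm1a at 24.2 and 26.8 TPM, and the H3K9 demethylase Kdm3b at 22.2 and 22.8 TPM. Kdm2a and Kdm1a overlapped, as did Kdm4a and Kdm2a. A middle group held Kdm2b at 16.8 and 10.7 TPM, Kdm3a at 15.6 and 12.9 TPM, the H3K4 demethylase Kdm5a at 14.7 and 14.1 TPM, Kdm7a at 12.5 and 10.2 TPM, Kdm4c at 11.8 and 12.3 TPM, and Kdm4b at 9.10 and 10.8 TPM. Within this group most ranges overlap.

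Kdm6b, the H3K27 demethylase known as an early lipopolysaccharide-induced gene of macrophages, lay at 6.81 and 7.70 TPM, eleventh in its class by mean level. With no unstimulated library its induction could not be measured. Kdm1b, the second amine oxidase, was at 4.71 and 5.02 TPM, Kdm5b at 4.0 and 4.21 TPM, and Kdm8 at 1.47 and 1.34 TPM. Kdm4d, with 1 count in each library, was below the floor of 3 counts.

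Kdm2b is known to exist as a long protein with a Jumonji demethylase domain and a short protein that lacks it, made from an internal start; both keep the CpG-binding zinc finger that brings a Polycomb complex to CpG islands. Here the short form carried the gene. Transcript Kdm2b-201, with 776 codons, was at 12.9 and 8.04 TPM, while the 3 complete coding transcripts from the upstream starts summed to 2.24 and 2.55 TPM. The short form was thus 5.78-fold and 3.15-fold above the long ones, and 3.96-fold and 2.58-fold above them in the deposited quantification made directly from reads. The first base of Kdm2b-201 lies 88178 bases downstream of that of Kdm2b-203 (1303 codons), and Kdm2b-201 lacks the first 545 codons of Kdm2b-203. The long form has a further start upstream of that, used by Kdm2b-202 (1309 codons, 0.72 and 0.37 TPM, against 1.52 and 2.07 TPM for Kdm2b-203). The genomic sequences just upstream of the 3 starts are shown to compare their CpG content. Each is the 250 bases before a RefSeq start on GRCm38.p6, minus strand of chromosome 5, with CpG in capitals: chr5:122989100-122989349 for Kdm2b-202, chr5:122988508-122988757 for Kdm2b-203 and chr5:122900351-122900600 for Kdm2b-201.
Kdm2b-202 long form start: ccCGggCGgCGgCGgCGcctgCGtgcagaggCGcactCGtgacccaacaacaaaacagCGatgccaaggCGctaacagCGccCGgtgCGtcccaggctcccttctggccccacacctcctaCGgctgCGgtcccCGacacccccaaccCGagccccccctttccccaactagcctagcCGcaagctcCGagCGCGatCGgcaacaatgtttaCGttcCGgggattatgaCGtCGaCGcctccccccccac
Kdm2b-203 long form start: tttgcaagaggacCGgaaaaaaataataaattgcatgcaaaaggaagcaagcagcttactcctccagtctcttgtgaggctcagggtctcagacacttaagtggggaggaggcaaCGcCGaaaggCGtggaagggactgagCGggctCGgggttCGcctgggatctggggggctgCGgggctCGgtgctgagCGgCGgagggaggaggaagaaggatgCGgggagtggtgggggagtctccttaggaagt
Kdm2b-201 short form start: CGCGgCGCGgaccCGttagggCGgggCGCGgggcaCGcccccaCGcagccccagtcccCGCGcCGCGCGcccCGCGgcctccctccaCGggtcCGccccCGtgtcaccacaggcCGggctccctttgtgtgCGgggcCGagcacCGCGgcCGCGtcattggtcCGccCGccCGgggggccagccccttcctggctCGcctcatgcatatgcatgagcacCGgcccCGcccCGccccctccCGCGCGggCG
They hold 27 CpG (68.0% G or C), 12 CpG (58.4%) and 38 CpG (80.8%). The ratio of observed to expected CpG was 1.00, 0.66 and 0.96. The start of Kdm2b-202, the lowest of the 3 transcripts, and that of Kdm2b-201, the highest, thus had like ratios, and Kdm2b-203 between them in level had the lowest.

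The H3K4 methyltransferases of the Kmt2 and Setd1 families were all detected, within a narrow range. Kmt2d, an enhancer monomethyltransferase, was at 22.6 and 15.5 TPM and its partner paralogue Kmt2c at 12.6 and 10.1 TPM. Kmt2e, a Set-domain protein with no established methyltransferase activity, was at 19.8 and 17.2 TPM. The promoter enzymes Kmt2b, at 10.1 and 10.3 TPM, and Kmt2a, at 7.26 and 5.62 TPM, were lower. Setd1a, at 10.4 and 8.80 TPM, and Setd1b, at 8.91 and 7.44 TPM, both catalytic subunits of the COMPASS complexes, lay between these. Kmt2c, Kmt2b and Setd1a overlap in level. The gene level of Kmt2d rests largely on a short fragment: the incomplete model Kmt2d-204, with 232 codons, held 63.4% and 60.0% of the gene's TPM but 5.52% and 4.94% of its counts. The complete Kmt2d-201, with 5588 codons, was at 6.65 and 4.97 TPM.

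Setd3, which methylates a histidine of actin, stood far above the other Setd proteins at 90.6 and 80.3 TPM. Setd5 was at 28.6 TPM in both libraries. Setd2, which trimethylates H3K36 in transcribed genes, was at 27.3 and 25.9 TPM. The lower members were Setd7 at 9.10 and 8.14 TPM, Setd6, known to methylate p65, at 5.83 and 7.88 TPM, and Setd4 at 2.42 and 2.27 TPM. Ezh1 and Ezh2 are the alternative H3K27 methyltransferases of Polycomb repressive complex 2, and Ezh2 is known as the form of dividing cells. Ezh1 lay at 34.8 and 29.0 TPM and Ezh2 at 8.81 and 7.03 TPM, so that Ezh1 exceeded Ezh2 by 3.95-fold and 4.12-fold. The ratio was 3.89 and 3.78 in the quantification from reads. All 20 cell cycle genes of the list were detected, with a median of 6.82 and 4.95 TPM.

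DNA methylation genes were uneven. Dnmt3a, a de novo methyltransferase, reached 85.3 and 126 TPM, and the maintenance enzyme Dnmt1 40.7 and 36.0 TPM. Dnmt3b, the other de novo enzyme, was at 0.30 and 0.33 TPM, and the catalytically inactive cofactor Dnmt3l at 0.93 and 0.41 TPM from 10 and 12 counts. Dnmt3c, a rodent duplicate of Dnmt3b known from the male germ line, had 2 and 11 counts. Reads of Dnmt3b and Dnmt3c can be split between the duplicates, and together they came to 33 and 39 counts. Thus Dnmt3a and Dnmt1 were the only members of the family above the detection limit.

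Dnmt3a also has an internal start, which gives a protein lacking the N-terminal part of the long form. The short transcript Dnmt3a-205, with 689 codons, was at 12.9 and 23.2 TPM, and the long ones, Dnmt3a-201 and Dnmt3a-218 with the same 908 codons, summed to 31.3 and 38.9 TPM. The short form was therefore 0.413 and 0.597 of the long form, or 0.581 and 0.757 of it in the quantification from reads. Both tables put the long form above the short one in both libraries. The short transcript starts 84698 bases downstream of Dnmt3a-201 and lacks its first 219 codons. As for Kdm2b, the upstream sequences are shown to compare the starts; they come from RefSeq on GRCm38.p6, plus strand of chromosome 12, with CpG in capitals, the long form at chr12:3806730-3806979 and the short form at chr12:3891494-3891743.
Dnmt3a long form start: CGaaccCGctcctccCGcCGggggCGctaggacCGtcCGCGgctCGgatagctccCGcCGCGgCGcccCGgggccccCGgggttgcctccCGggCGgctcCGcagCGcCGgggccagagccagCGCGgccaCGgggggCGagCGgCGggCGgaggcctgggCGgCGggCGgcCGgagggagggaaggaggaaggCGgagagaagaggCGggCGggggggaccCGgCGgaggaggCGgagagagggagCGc
Dnmt3a short form start: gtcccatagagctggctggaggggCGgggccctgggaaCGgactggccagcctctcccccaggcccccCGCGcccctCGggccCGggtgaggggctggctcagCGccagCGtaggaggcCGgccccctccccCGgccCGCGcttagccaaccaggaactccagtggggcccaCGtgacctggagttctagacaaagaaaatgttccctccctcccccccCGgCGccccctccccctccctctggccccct
Upstream of the long form there are 38 CpG, an observed to expected ratio of 0.94, and upstream of the short form 15, a ratio of 0.46. In this gene the upstream start, that of the higher form, is the more CpG-rich.

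A short model makes up much of the gene level of Dnmt3a. Dnmt3a-214, a retained-intron transcript inside the gene, held 39.1% and 43.9% of the gene's TPM from 1.23% and 1.40% of its counts. Over coding transcripts alone Dnmt3a was at 51.8 and 69.9 TPM, below Setd3 in replicate 1 and above it in replicate 2 (79.9 and 67.7 TPM for Setd3 on the same scale). Dnmt3a on this scale still exceeded Dnmt1, at 40.1 and 35.7 TPM. The antisense RNA Dnmt3aos was at 6.95 and 6.23 TPM. It shares 133 exonic bases with Dnmt3a on the opposite strand, and no source used here states whether counting was stranded.

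**Figure D2:**
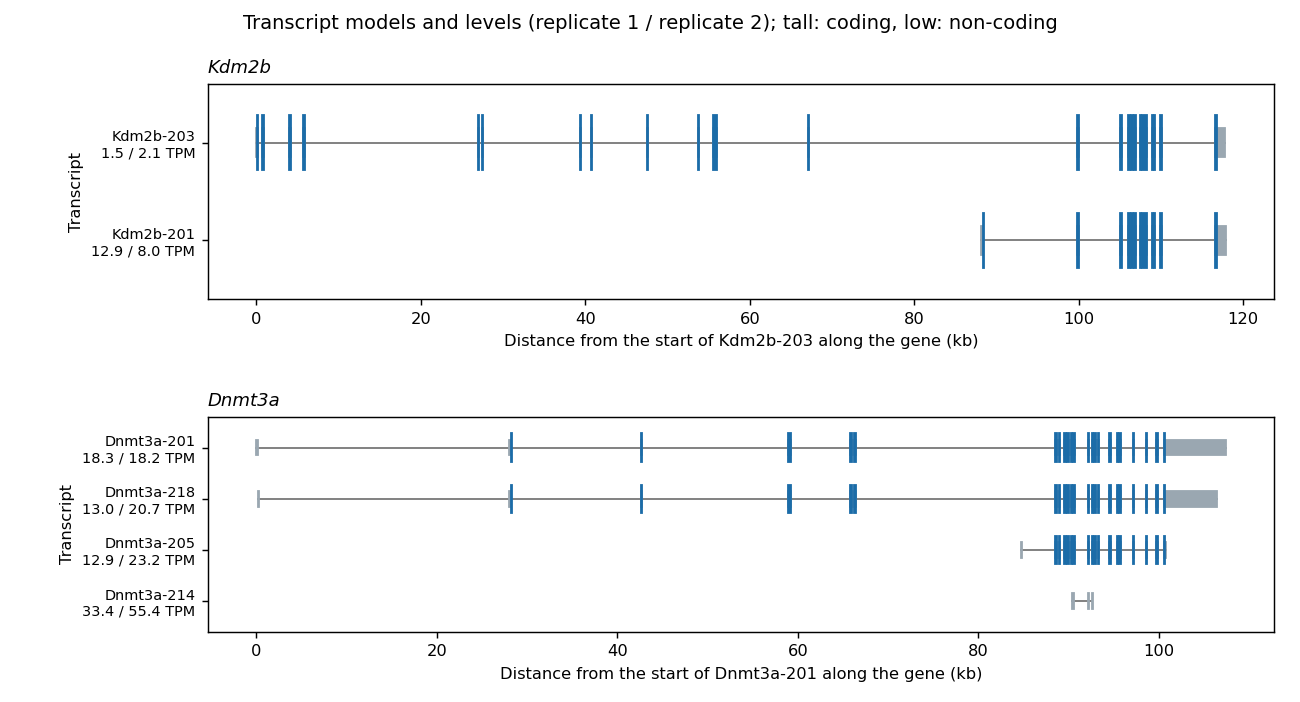
Transcript models of Kdm2b and Dnmt3a along the gene (x axis, kb from the first base of the upper model; tall blocks are coding, low blocks non-coding exon parts), with each transcript's TPM in replicate 1 and replicate 2 beside its name. The short Kdm2b-201 lies above the long Kdm2b-203 in level, while the short Dnmt3a-205 is below the sum of the long Dnmt3a-201 and Dnmt3a-218.

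Tet3 and Tet2 were detected and Tet1 was not. Tet3 lay at 10.4 and 10.9 TPM, Tet2, known to restrain interleukin 6 late in inflammation, at 5.84 and 6.93 TPM, and Tet1 at 0.30 and 0.38 TPM from 46 and 34 counts. Tet3 exceeded Tet2 by 1.78-fold and 1.58-fold. Retained-intron and processed transcripts held 34.8% and 38.4% of Tet2, and over coding transcripts alone Tet2 was at 3.81 and 4.27 TPM, 2.72-fold and 2.55-fold below Tet3. Most of Tet3 came from Tet3-202, with 1668 codons, at 9.35 and 9.71 TPM (89.8% and 88.8% of the gene). The longer Tet3-203, with 1803 codons, was at 1.02 and 1.19 TPM. In the quantification from reads Tet3-202 held 85.8% and 84.7%, and Tet3-203 13.8% and 14.7%. The first 135 codons of Tet3-203, which Tet3-202 lacks, belong to the part where the DNA-binding CXXC domain is known to lie. The 3 remaining matches of the symbol rule were at or near 0: Kdm6bos at 0.31 and 0.25 TPM, and Dnmt3bos and Kdm4dl at 0 counts in both libraries.

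Transcripts of most listed partners of these enzymes were detected as well, which does not show that the complexes were assembled. Of the Polycomb partners of Ezh1 and Ezh2 9 of 10 genes were detected, from Rbbp7 at 89.5 and 66.6 TPM to Phf19 at 2.13 and 1.88 TPM, with Epop not detected. All 12 COMPASS partners were detected (Wdr82 highest, 39.4 and 39.0 TPM), as were 6 of 6 NCoR and SMRT genes (Ncor1 highest, 81.3 and 70.9 TPM), 13 of 13 Sin3 genes (Sin3b highest, 108 and 96.7 TPM) and 9 of 9 NuRD genes (Mbd2 highest, 94.8 and 107 TPM). CoREST and MiDAC genes reached 8 of 9. Median levels of the NCoR and NuRD lists, 58.4 and 42.1 TPM and 47.6 and 42.3 TPM, lay above those of class I deacetylases, 29.2 and 25.3 TPM. Those of the Sin3 list, 15.8 and 17.2 TPM, and of the CoREST and MiDAC list, 15 and 15.9 TPM, lay below them. Among enzymes outside the symbol rule, 20 of 20 other histone methyltransferases, 12 of 12 acetyltransferases and 6 of 7 other Jumonji proteins were detected. DNA methylation partners reached 8 of 8 and BET readers 3 of 4, led by Brd2 at 220 and 240.1 TPM.

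The 2 libraries gave close values for the members. Ratios are replicate 2 over replicate 1, on counts scaled by the trimmed mean of M-values (TMM) with 0.5 added, and the 95% interval is exact and covers counting error only. Of the 54 members with at least 20 counts in each library, 0 were 2-fold higher and 0 were 2-fold lower in replicate 2. Over all 12471 genes with these counts, 1.94% were 2-fold higher and 0.521% were 2-fold lower, so a count of 0 among 54 is near the background. The members' log2 ratios ran from -0.45 (Hdac6) to 0.42 (Dnmt3a); 83.7% of all genes had a ratio no larger in size. Their median size, 0.18 on the log2 scale, was close to the 0.20 of all genes.

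**Figure D3:**
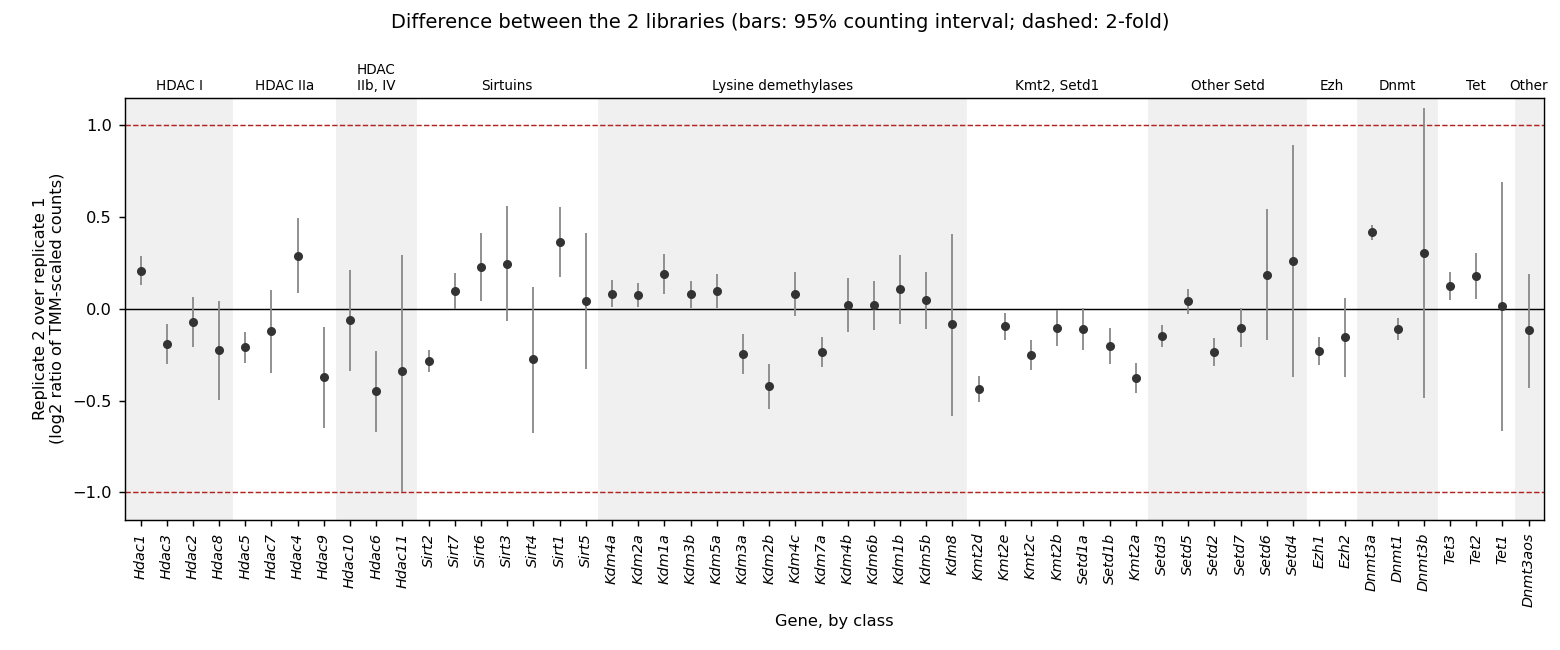
log2 ratio of replicate 2 over replicate 1 (y axis, TMM-scaled counts) for the 54 members with at least 20 counts in each library, grouped by class along the x axis; bars are 95% counting intervals, and dashed lines mark 2-fold. Every point lies between -0.45 and 0.42, and all 7 Kmt2 and Setd1 points lie below 0.

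The interval lay above 0 for 12 (22.2%) and below 0 for 18 (33.3%) of the 54 members. Over all genes it lay above 0 for 23.3% and below 0 for 31.2%, so the members' shares are near the background. Their median log2 ratio was -0.08, and that of all genes -0.02. Higher in replicate 2 were Dnmt3a by 0.42 on the log2 scale (interval 0.37 to 0.46), Sirt1 by 0.36 (0.17 to 0.55), Hdac4 by 0.29 (0.09 to 0.49), and, with wide intervals that include 0, Dnmt3b by 0.30 (-0.48 to 1.09) and Setd4 by 0.26 (-0.37 to 0.89). These are the 5 highest ratios. The 5 lowest were Hdac6 at -0.45 (-0.67 to -0.23), Kmt2d at -0.44 (-0.51 to -0.37), Kdm2b at -0.42 (-0.55 to -0.30), Kmt2a at -0.38 (-0.46 to -0.30) and Hdac9 at -0.37 (-0.65 to -0.10). Counting intervals leave out any other spread between the 2 libraries. Over 13937 genes that spread was estimated as a biological coefficient of variation of 17.4%, in which culture and technical parts cannot be told apart.

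Some classes leaned one way. All 7 Kmt2 and Setd1 genes were lower in replicate 2 (median -0.20 on the log2 scale, 6 intervals below 0). Their 12 COMPASS partners were all lower too, with a median of -0.16. This lean was not particular to them. Sin3 genes were lower in 11 of 13 (median -0.28), acetyltransferases in 8 of 12 (-0.13) and NuRD genes in 6 of 9 (-0.09). Class I and class IIa deacetylases were each lower in 3 of 4, class IIb and IV deacetylases in 3 of 3 and Ezh genes in 2 of 2. Leaning the other way were lysine demethylases, with 10 of 14 higher (median 0.06), sirtuins with 5 of 7 higher (median 0.09) and Tet genes with 3 of 3 higher (median 0.12). DNA methylation partners were higher in 5 of 8 (median 0.04). The other Jumonji demethylases did not share the lean of the lysine demethylases, with 5 of 6 lower (median -0.12). Over all genes 5790 were higher and 6681 lower. Of the 7 Kmt2 and Setd1 genes, 6 average 6000 bases of transcript or more. All genes of 6000 to 8000 bases had a median log2 ratio of 0.00 and the 7 members of that length one of -0.10. From 8000 bases on the medians were -0.03 for all genes and -0.24 for 5 members. The 7 include Kmt2b, Kmt2d and Kmt2e, and the 5 include Kmt2a, Kmt2c and Setd1b. These member medians thus rest in part on the same ratios and are no separate comparison. Cell cycle genes were lower in 19 of 20 (median -0.43) and immediate-early genes higher in 14 of 14. The part of length and of these lists in the class values was not tested. Kdm6b did not move with the immediate-early list, at 0.02 (-0.11 to 0.15).

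The isoform tables showed which members are carried by a full-length coding transcript. Of the 50 detected coding members, 46 had a protein-coding dominant transcript, meaning the one with the highest mean share of the gene's TPM. It held at least 90% of the codons of the gene's longest coding model in 39, was shorter in 4 and was an incomplete model in 3. Among the 27 members whose mean was 10 TPM or more, 26 had a coding dominant transcript and 23 a full-length one, where all 6918 genes at that level had 94.7% and 85.4%. In Tet3, Kdm7a, Dnmt1, Hdac1 and Hdac2 models that pass this 90% cut held nearly all of the TPM. The cut lets pass Tet3-202, which lacks 135 codons of Tet3-203, and Dnmt1-202, which lacks 118 codons of Dnmt1-201.

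**Figure D4:**
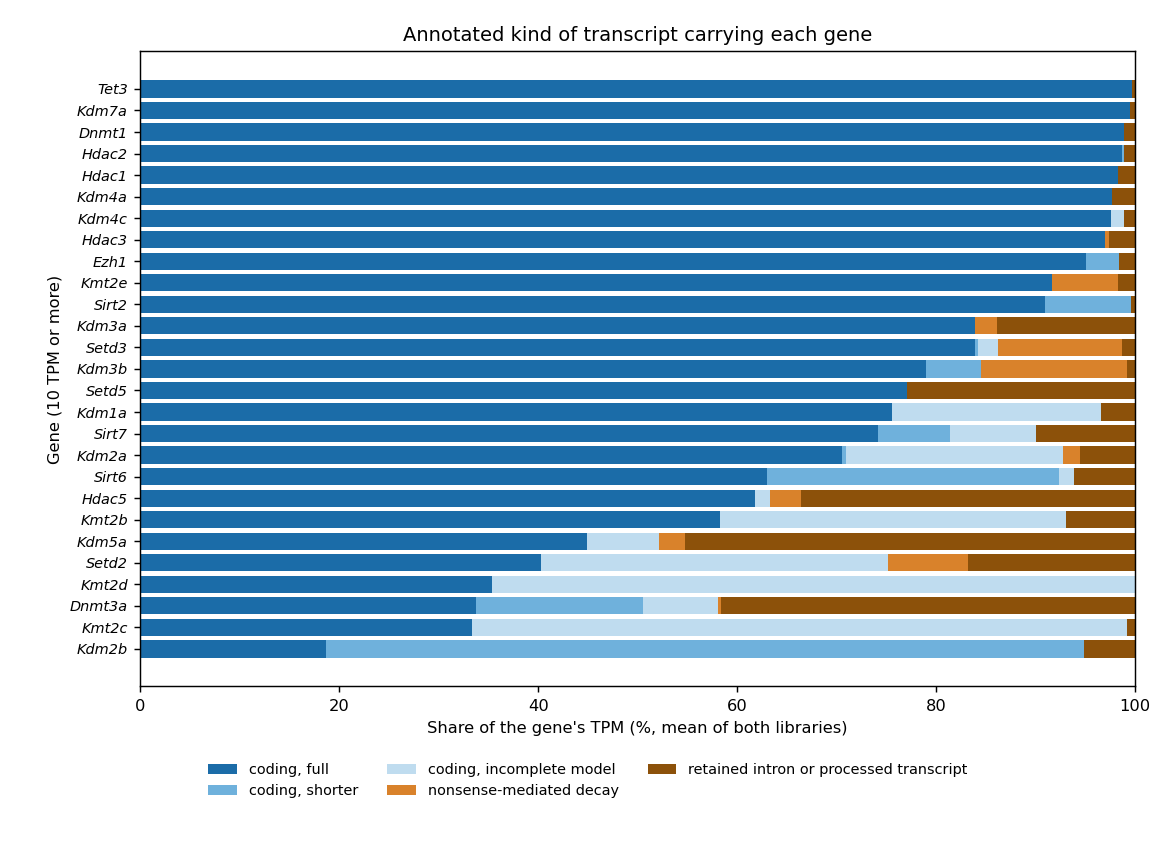
Share of each gene's TPM by annotated kind of transcript (x axis, percent, mean of both libraries) for the 27 members at 10 TPM or more (y axis); full means at least 90% of the codons of the longest coding model. Kdm2b is carried by a shorter coding transcript, Kmt2d and Kmt2c by incomplete coding models, and Dnmt3a and Kdm5a in large part by retained-intron or processed transcripts.

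Retained-intron and processed transcripts held a median of 1.75% and 2.40% of the TPM in these 27 members, and 0.879% and 1.06% in all genes at this level. They passed 10% in 5 of the 27 in replicate 1 and 8 in replicate 2, and in 18.3% and 19.6% of all genes. Kdm5a gave 44.8% and 45.6% of its TPM to such transcripts, which left 7.79 and 7.23 TPM in coding ones. Hdac5 gave 30.3% and 36.8%, leaving 26.6 and 21.4 TPM. These shares are per length, and the counts behind them were smaller: 8.16% and 7.76% for Kdm5a, and 5.97% and 9.12% for Hdac5.

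Below 10 TPM, 3 members had a dominant transcript that is not annotated as protein-coding. Sirt4, with 144 and 87 counts, had 81.2% and 84.8% of its TPM in retained-intron transcripts, and 55.2% and 60.8% of its counts. Its full-length transcript Sirt4-201 was at 1.51 and 1.06 TPM, so Sirt4 was mostly non-coding in both libraries. In Setd6 the processed transcript Setd6-206 held 55.1% and 44.8%, and coding transcripts held 43.2% and 52.7%, or 2.52 and 4.15 TPM. Sirt1-205, annotated as a target of nonsense-mediated decay, held 35.1% and 58.8% of Sirt1, and coding transcripts 63.3% and 39.0%. The latter were at 3.17 and 2.51 TPM, lower in replicate 2, whereas the whole gene was higher there. The coding Sirt1-201 held 41.3% and 25.2%. The quantification from reads gave Sirt1-205 17.1% and 37.6% and Sirt1-201 37.5% and 27.3%, so Sirt1-201 was dominant there by mean share. In both quantifications Sirt1-201 led in replicate 1 and Sirt1-205 in replicate 2. In Kdm6b the processed Kdm6b-202 held 9.09% and 22.9% of the TPM but 0.734% and 2.07% of the counts, and coding transcripts were at 6.20 and 5.94 TPM.

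Several further members were carried by a shorter coding transcript or split between coding transcripts. Hdac9-201, with 588 codons, held 59.7% and 67.9% of Hdac9 and lacks the last 492 codons of the 1064-codon Hdac9-205; a short Hdac9 protein without the deacetylase domain is known. Sirt2 was split between Sirt2-202, with 352 codons, at 47.6% and 46.8%, and Sirt2-201, with 389, at 41.3% and 45.9%. The former lacks the first 37 codons of the latter. Sirt3-202, with 257 codons of up to 309, held 54.5% and 49.0% of Sirt3, which is known to occur with and without a mitochondrial targeting N-terminus. Sirt5-211, with 310 codons, held 64.7% and 72.0% of Sirt5. It is shorter only against Sirt5-207, a model of 350 codons that held 7.54% and 2.12%. Dnmt1 had Dnmt1-201, with 1620 codons, at 64.7% and 71.2% and Dnmt1-202, with 1501, at 33.4% and 28.1%. The complete Setd2-201 held 44.7% and 35.7% of Setd2, at 12.2 and 9.25 TPM, but 78.3% and 72.8% of its counts. In Kmt2c the incomplete Kmt2c-208 held 46.1% and 52.8%. The complete Kmt2c-201 held 33.3% and 33.4%, at 4.19 and 3.37 TPM, but 54.9% and 54.7% of the counts. Kdm2a-202 held 50.8% and 36.2% of Kdm2a, and Kdm1a-202 43.3% and 48.7% of Kdm1a. In Ezh1, Ezh1-203 held 95.9% and 78.0%. Ezh1-202, which lacks 3 codons of Ezh1-203, was at 0% and 16.3%, and at 1.69% and 23.3% in the quantification from reads. Whether the transcripts themselves or the division of reads between these models differed between the libraries was not tested.

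Promoter windows, 250 bases before to 50 after a RefSeq start (GRCm38.p6), were found for 45 members, 64 windows in all, some of them overlapping. The median ratio of observed to expected CpG was 0.82, against 0.38 over all 32841 windows. It reached 0.6, the customary minimum of a CpG island, in 47 of the 64 (73.4%) and in 35.8% of all windows. All windows cover 27018 genes, whether detected or not, whereas 57 of the 64 member windows belong to detected members. Whether the members differ from other detected coding genes in CpG or in the motifs below was not tested. The undetected Dnmt3l had 3 windows between 0.11 and 0.27, whereas the undetected Kdm4d (0.82), Dnmt3b (0.69), Hdac11 (0.66) and Tet1 (0.61) lay above the minimum. The undetected members thus lay on both sides of it. Both motifs below were searched on both strands. TATAAA, the TATA box core, was in 2 windows (3.13%, all windows 13.6%), and TGACTCA, the AP-1 site, in 5 (7.81%, all windows 5.20%), namely of Dnmt3aos, Hdac7, Kdm3a (2 of its 3 windows) and Kdm4a. A match is a description of the letters only.

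**Figure D5:**
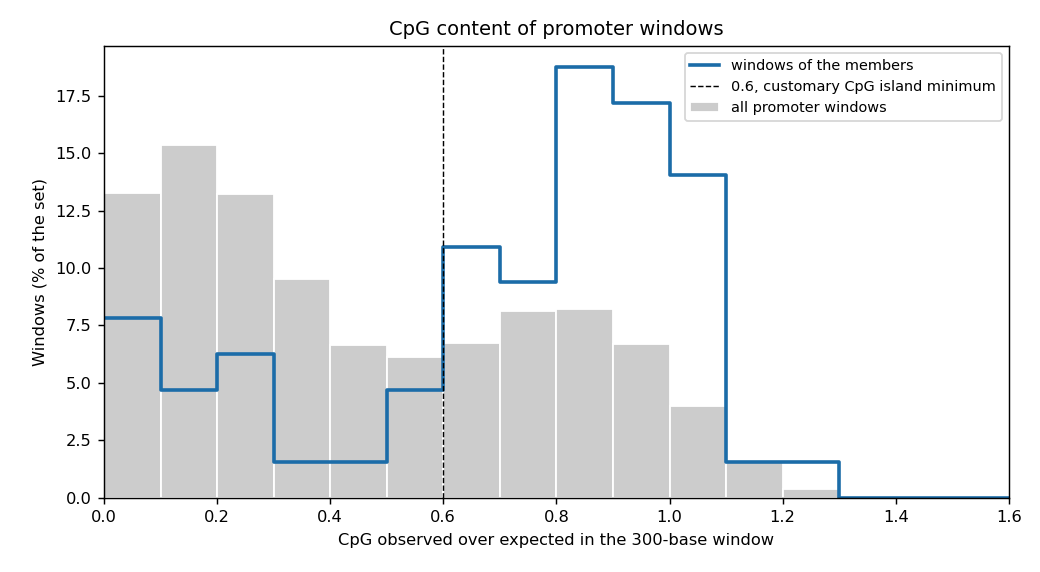
Distribution of the observed to expected CpG ratio (x axis) in promoter windows, as percent of windows (y axis), for all 32841 windows (grey bars) and the 64 windows of the members (line). The members lie mostly to the right of the dashed line at 0.6, with 73.4% of their windows at or above it.

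Both deposited quantifications of the same reads gave like levels for the members. After centring on all protein-coding genes, 0 of 50 detected members were 2-fold apart, and the log2 differences ran from -0.54 (Setd2) to 0.34 (Kdm4b). Of all 10581 coding genes compared, 0.671% were 2-fold apart. Setd2 was at 18.3 and 14.0 TPM in the quantification from reads. Some members share exonic bases with a neighbour. The largest shared part is 51.8% of the exonic bases of Setd1a, 3523 bases, with the protein-coding Gm49388 on the same strand, which had a mean level of 0.235 TPM. Kdm1b shares 505 exonic bases with Dek and Kmt2e 972 with Srpk2, each on the opposite strand, and Sirt7 shares 124 with Mafg on the same strand. Also on the opposite strand, Sirt3 shares 342 with Psmd13 (mean level 113 TPM) and 418 with Ric8a (32.8 TPM). Kdm2b likewise shares 627 with Rnf34 (27.2 TPM).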

How the data were processed

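Polyadenylated RNA of 2 libraries was quantified by the submitters on mm10 with GENCODE M21, per the file headers; no aligner or quantifier is named in the sources used. The gene and transcript tables made from alignments hold expected counts, TPM and the percent of each gene carried by a transcript, per the file headers. A further deposited transcript table, made from FASTQ files, holds estimated counts and TPM, summed here per gene. Expected counts were rounded. No column outside the series was used (0 columns).

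Members were found by symbol, and levels taken from the gene table. Library ratios used rounded counts scaled by TMM (edgeR 4.0.16, R 4.3.3), with 0.5 added and Clopper-Pearson 95% intervals (scipy 1.17.1); a gene was called at 2-fold or more with 20 counts in each library. Intervals and the floor of 3 counts (0.0715 and 0.0975 CPM) cover counting error only. DESeq2 1.42.0 size factors were an alternative. The scripts were tested on simulated data. Spike-in entries (97) and 26248 entries with numeric names stayed out of totals. Of Setd9 no entry was matched, and Mideas was matched under its older symbol Elmsan1.

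Members, classes and gene lists were chosen with earlier results of these data known. Every member at 1 TPM or more in either library is named with its values; described further are the ends of each class, the 5 highest and 5 lowest ratios, and members with an unusual dominant transcript. Transcripts were compared by codons of the GENCODE M21 models.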

Additional observations from a re-analysis of the deposited data

How the results depend on the processing

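No paired analysis was possible because both libraries belong to 1 group. The median level of the members was 8.40 TPM over both libraries, between 8.36 TPM (without replicate 1) and 9.01 TPM (without replicate 2). Counting protein-coding transcripts only, an alternative chosen after seeing the data, it was 7.77 TPM. With no filter on low counts 1 member was at least 2-fold higher in replicate 2, Dnmt3c with 2 and 11 counts, against 0 with the filter; the alternative adds genes of few counts by its construction. The number detected was 51 in the main analysis, 52 at 0.5 TPM, 41 at 5 TPM, 51 from the FASTQ-derived table and 50 with coding transcripts only. No member was 2-fold lower under DESeq2 size factors, total counts, 5 added, a filter of 100 counts or the FASTQ-derived counts. Under the FASTQ-derived counts the log2 ratio changed sign for Kdm4b (0.02 to -0.0082) and Dnmt3aos (-0.12 to 0.06), neither of which was called.

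Limits: 2 libraries of 1 treatment show no response to treatment. Levels below 1 TPM rest on few counts, and for Dnmt3l and Kdm4d a difference between libraries was not detectable at this depth. Transcript shares rest on a division of reads among overlapping models.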
